A study of Mus musculus with 18 samples.

Results

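The genes described here carry peptides to the cell surface on MHC class I molecules or cut those peptides in the immunoproteasome. They were taken by name from a fixed list of 10 genes (H2-K1, H2-D1, B2m, Tap1, Tap2, Tapbp, Psmb8, Psmb9, Psmb10 and Nlrc5) among the 29875 genes of the count table. No cut-off on a measured value selected them, but the list was chosen with earlier results of these data known. All 10 passed the filter on low counts, which left 13844 genes for testing. RNA was sequenced from dendritic cells (DCs) grown from the bone marrow of C57Bl6/J wild-type mice, 8 to 12 weeks old, in medium with GM-CSF, a growth factor that drives marrow precursors to DCs. Every culture received 200 ng/ml lipopolysaccharide (LPS), a bacterial cell wall product that matures DCs, on day 8 for 24 hours. The matured cells were then placed in bovine collagen gels of 1.7, 2.6, 3.5 or 4.4 mg/ml or in the same chambers without collagen (suspension), and RNA was taken 5 hours after CCL19, a chemokine that mature DCs follow, was introduced. Each of the 4 collagen groups had 3 libraries, and the suspension cells formed 2 groups of 3, titled without and plus CCL19. The library names of the suspension samples state the opposite of their titles on CCL19, so the groups are called here by their titles, no effect of CCL19 is read from them, and collagen was compared with all 6 suspension libraries together. Cells without LPS were not analysed here, so the response of these genes to maturation itself is not described.

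MHC class I molecules consist of a polymorphic heavy chain, here H2-K1 or H2-D1, bound to the invariant light chain B2m and to a peptide of cytosolic origin. Those peptides are cut by the proteasome, whose catalytic subunits Psmb5, Psmb6 and Psmb7 are exchanged for Psmb8, Psmb9 and Psmb10 under interferon or in professional antigen-presenting cells. The TAP transporter, a pair of Tap1 and Tap2, moves the peptides into the endoplasmic reticulum, where tapasin (Tapbp) bridges it to the empty heavy chain. Nlrc5 is a transactivator that is recruited to class I promoters by the RFX and NF-Y factors, and mature DCs present class I peptides to CD8+ T cells.

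In GRCm38, the build of the deposited counts, 7 of the 10 genes lie on chromosome 17. Tapbp is annotated at chr17:33915899-33929292 and H2-K1 at chr17:33996017-34000347, followed by Psmb9 at chr17:34181987-34187764, Tap1 at chr17:34187553-34197225, Psmb8 at chr17:34197721-34201454 and Tap2 at chr17:34203527-34216321, with H2-D1 at chr17:35262730-35267499. B2m lies at chr2:122147686-122153083, and Nlrc5 and Psmb10 lie on chromosome 8 at chr8:94434356-94527272 and chr8:105935735-105938444. Psmb9 and Tap1 stand head to head on opposite strands, with 225 bases between their RefSeq start sites, and their longest annotated transcripts overlap. The kit kept strand, but the strand setting of the counting was not given in the sources used here, so reads of such overlapping pairs may not be separated. The heavy chains share sequence with their relatives. Of all 50-base stretches in the principal annotated transcript, 8.79% of H2-K1 and 14.3% of H2-D1 occur in another gene, against 2.00% for Tapbp, 0.861% for Tap1, 0.737% for Tap2 and 0% for the other 5, so the heavy chain counts depend on how shared reads were assigned.

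The promoter of H2-K1 is shown because it holds the elements through which inflammatory and interferon signals and the Nlrc5 complex are known to act on class I genes, and that of B2m because the light chain carries only some of the same letters. Both are the RefSeq GRCm38.p6 bases up to the start site, 5′ to 3′ on the strand of the gene. Capitals mark, from left to right in H2-K1, a kappaB site (GGGGATTCCC), an interferon-stimulated response element (ISRE, searched as GAANNGAAAC, here on the other strand), the TGACG core of a cAMP response element and a CCAAT box, which on this strand reads ATTGG. In B2m they mark TGACG and ATTGG. Only these exact letters were searched, so unmarked bases of B2m may hold kappaB sites or ISREs in other letters.
H2-K1, chr17:34000348-34000497, minus strand: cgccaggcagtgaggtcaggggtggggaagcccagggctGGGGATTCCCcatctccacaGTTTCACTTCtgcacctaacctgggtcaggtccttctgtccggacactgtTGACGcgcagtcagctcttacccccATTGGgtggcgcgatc
B2m, chr2:122147537-122147685, plus strand: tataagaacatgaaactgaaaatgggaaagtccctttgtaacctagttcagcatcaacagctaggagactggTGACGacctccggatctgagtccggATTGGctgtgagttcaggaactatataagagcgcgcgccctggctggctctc
The stretch with the first 2 elements was set beside that of H2-D1, because both heavy chains carry it.
H2-K1, chr17:34000429-34000458, minus strand: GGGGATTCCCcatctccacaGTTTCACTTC
H2-D1, chr17:35262923-35262952, plus strand: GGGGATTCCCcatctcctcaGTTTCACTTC
The stretches were identical at 29 of 30 bases, with A18T as the substitution from H2-K1 to H2-D1, counted from 1 at the 5′ end.

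Windows of 250 bases before a RefSeq start site were found for 8 of the 10 genes, and Tap2 and Nlrc5 had none in the table. Searching both strands, the kappaB letters were present in 28 of 32851 windows of all genes (0.0852%) and the ISRE letters in 1.45%, while TGACG was present in 17.8% and CCAAT in 33.8%. Among the 8 genes, H2-K1 and H2-D1 held the kappaB and the ISRE letters. TGACG was present in the windows of H2-K1, H2-D1, B2m, Psmb9 and Tap1, and the head-to-head pair Psmb9 and Tap1 shares most of its window. CCAAT was present in those 5 and in Tapbp, and neither Psmb8 nor Psmb10 held any of the 4. The kappaB and ISRE letters were read from the H2-K1 promoter itself, so its own match is given by construction. These matches describe letters in a fixed window, and the motifs were chosen after the expression values were seen.

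The libraries held 13062944 to 28059839 counts, so that 3 counts, the limit a count of 0 allows, corresponded to 0.107 to 0.230 CPM, the counts scaled to a common library total. All levels below are CPM on TMM-scaled library sizes, and all 10 genes were far above this limit, the lowest value being 152 counts of Nlrc5. The labelled cell type was checked against its markers: 11 of 11 DC markers exceeded 1 CPM in every library, with sums of 20382 to 72914 CPM, while all 6 markers of T and NK cells stayed under 1 CPM in every library. Macrophage markers summed to 551 to 5327 CPM and neutrophil markers to 636 to 9766 CPM, so markers of other myeloid cells were present as well. The library of 4.4 mg/ml replicate 2 stood apart for these genes. The edgeR counts called in the densest gel and in the density trend, without offsets, are given with and without it further on. Replicates 1, 2 and 3 of the different groups share a date and a lane in the library names. Of 45 pairs of libraries with the same number and different groups, the deviations from the group means correlated at 0.434 on average, against -0.214 for 90 pairs with different numbers, so fits with the replicate number as a block are given wherever they change a call.

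Per kilobase of transcript, the light chain was by far the most abundant of the 10 transcripts. Averaged over all 18 libraries, B2m stood at 6892 CPM per kb, H2-D1 at 2000 and H2-K1 at 1782. Of the immunoproteasome subunits, Psmb8 reached 618 CPM per kb, Psmb9 220 and Psmb10 149, beside 95.1 for Psmb5, 530 for Psmb6 and 77.0 for Psmb7, the constitutive subunits they replace. The loading factors followed with Tapbp at 238, Tap1 at 205 and Tap2 at 38.1 CPM per kb, and the transactivator Nlrc5 was lowest at 4.49 CPM per kb.

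**Figure D1:**
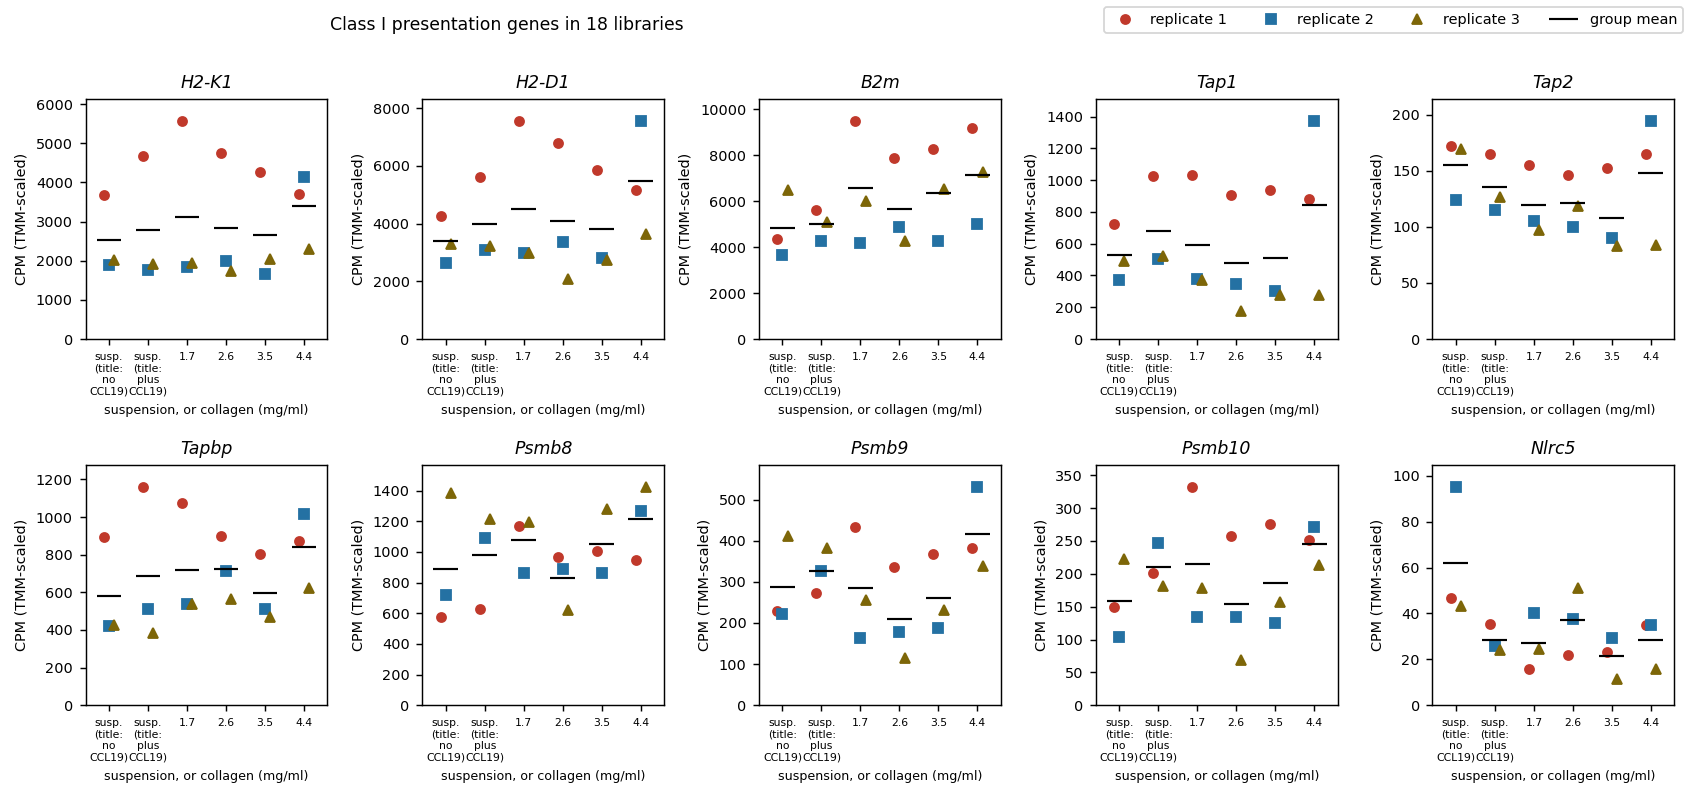
Level of each of the 10 genes in every library (CPM on a linear axis), by group, with the 3 replicate numbers marked and the group means as lines. H2-K1 is highest in replicate 1 in 5 of the 6 groups, and the library of 4.4 mg/ml replicate 2 stands at 4140 CPM.

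The heavy chains did not differ between collagen and suspension beyond the spread of the libraries. H2-K1 in suspension stood, for replicates 1, 2 and 3, at 3688, 1885 and 2018 CPM in the group titled without CCL19 and at 4669, 1760 and 1906 CPM in the group titled plus CCL19. In collagen, with gels named by their mg/ml, it stood at 5582, 1837 and 1950 CPM in the 1.7 gels, 4765, 1989 and 1738 CPM in the 2.6 gels, 4265, 1673 and 2041 CPM in the 3.5 gels and 3711, 4140 and 2309 CPM in the 4.4 gels. All 6 libraries of replicate 1 lay at or above 3688 CPM, and all libraries of replicates 2 and 3 except 4.4 mg/ml replicate 2 lay at or below 2309 CPM, so the collagen and suspension values overlapped. The replicate number took 76.1% of the variance of log2 CPM of H2-K1 and the group 6.45%. H2-D1 ranged from 2635 to 5620 CPM in suspension (median 3257, n = 6) and from 2071 to 7567 CPM in collagen (median 3512, n = 12), with its highest value in 4.4 mg/ml replicate 2. The log2 change in collagen was 0.17 (SE 0.338, 95% interval -0.54 to 0.89) for H2-K1 and 0.27 (SE 0.304, -0.38 to 0.91) for H2-D1, with edgeR quasi-likelihood adjusted p of 0.788 and 0.618. In bulk RNA, fewer cells of a type and less RNA per cell cannot be told apart.

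B2m, the light chain without which the heavy chain does not reach the surface, had the largest positive log2 difference of the 10 genes in collagen, and it did not pass the test. It stood at 4342, 3671 and 6503 CPM in suspension titled without CCL19 and at 5602, 4271 and 5100 CPM in suspension titled plus CCL19. In collagen the values were 9502, 4186 and 6003 CPM in the 1.7 gels, 7882, 4864 and 4251 CPM in the 2.6 gels, 8252, 4259 and 6528 CPM in the 3.5 gels and 9193, 5012 and 7265 CPM in the 4.4 gels. In replicate 1 all 4 gels lay above both suspension libraries, whereas in replicates 2 and 3 the ranges overlapped. The log2 change was 0.38 (SE 0.238, 95% interval -0.12 to 0.89, edgeR adjusted p = 0.316). Within replicates 1, 2 and 3 it was 0.82, 0.21 and 0.03, and with the replicate block the edgeR adjusted p was 0.149. With offsets for GC content and length its sign turned, to -0.05, and over all alternatives its adjusted p ranged from 0.0544 to 0.921.

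The genes of peptide transport and loading showed the same replicate spread. Tap1 stood at 727, 373 and 494 CPM in suspension titled without CCL19 and at 1024, 503 and 520 CPM in suspension titled plus CCL19. In collagen it stood at 1034, 377 and 373 CPM in the 1.7 gels, 906, 347 and 175 CPM in the 2.6 gels, 940, 302 and 280 CPM in the 3.5 gels and 883, 1375 and 276 CPM in the 4.4 gels. The lowest and the highest of all Tap1 values were both in collagen, and the log2 change was -0.03 (SE 0.404, 95% interval -0.88 to 0.82, edgeR adjusted p = 0.974). Its partner Tap2 ranged from 115 to 172 CPM in suspension (median 145) and from 82.5 to 195 CPM in collagen (median 112), with a log2 change of -0.23 (SE 0.203, edgeR adjusted p = 0.499) that was negative within all 3 replicates (-0.12, -0.04 and -0.63).

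Tapbp was at 895, 419 and 427 CPM in suspension titled without CCL19 and at 1161, 514 and 382 CPM in suspension titled plus CCL19. In collagen the values were 1073, 540 and 541 CPM in the 1.7 gels, 901, 716 and 563 CPM in the 2.6 gels, 805, 513 and 471 CPM in the 3.5 gels and 875, 1018 and 624 CPM in the 4.4 gels. All 4 gels of replicate 3 and 3 of 4 gels of replicate 2 lay above both suspension libraries of the same number, and no gel of replicate 1 did. The change over all densities was 0.18 on the log2 scale (SE 0.269, 95% interval -0.39 to 0.75, edgeR adjusted p = 0.714). At 4.4 mg/ml it was 0.41 (edgeR adjusted p = 0.523), and with the replicate block 0.54 (95% interval 0.07 to 1.01, edgeR adjusted p = 0.0864), which passed the threshold of 0.1. That call was kept in 5 of 18 fits that each left out 1 library, and without 4.4 mg/ml replicate 2 the change was 0.24 with an adjusted p of 0.493.

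The immunoproteasome subunits did not pass the test either, and replicate 1 went against replicate 3. Psmb9 stood at 230, 222 and 411 CPM in suspension titled without CCL19 and at 273, 326 and 383 CPM in suspension titled plus CCL19. In collagen it stood at 434, 162 and 257 CPM in the 1.7 gels, 336, 178 and 115 CPM in the 2.6 gels, 367, 187 and 231 CPM in the 3.5 gels and 383, 531 and 338 CPM in the 4.4 gels. All 4 gels of replicate 1 lay above both suspension libraries of that number, and all 4 gels of replicate 3 lay below theirs. The log2 change over all densities was -0.11 (SE 0.258, 95% interval -0.66 to 0.43, edgeR adjusted p = 0.820), made of 0.59, -0.22 and -0.86 within replicates 1, 2 and 3. Psmb8 ranged from 576 to 1382 CPM in suspension and from 622 to 1425 CPM in collagen (log2 change 0.14, SE 0.217, edgeR adjusted p = 0.715), with within-replicate changes of 0.76, 0.11 and -0.26. Psmb10 ranged from 104 to 247 CPM in suspension and from 68.8 to 332 CPM in collagen (0.11, SE 0.274, edgeR adjusted p = 0.830), with within-replicate changes of 0.68, -0.02 and -0.49.

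Nlrc5, the transactivator, had the largest log2 difference of the 10 genes, towards lower levels in collagen, and it passed the test with the replicate block and not without it. Set against each suspension group alone, the difference stood against the group titled without CCL19, while against the other group it was of either sign and was not called at any density. It stood at 46.9, 95.2 and 43.4 CPM in suspension titled without CCL19 and at 35.6, 25.7 and 24.2 CPM in suspension titled plus CCL19. Collagen held 15.9, 40.3 and 24.6 CPM in the 1.7 gels, 22.1, 37.8 and 51.1 CPM in the 2.6 gels, 23.3, 29.1 and 11.3 CPM in the 3.5 gels and 34.9, 35.1 and 15.9 CPM in the 4.4 gels. Collagen and suspension values overlapped, and the suspension group titled without CCL19 held the 95.2 CPM that was the highest of all 18 values. The 2 suspension groups did not overlap each other, at 43.4 to 95.2 CPM titled without and 24.2 to 35.6 CPM titled plus CCL19. The log2 change was -0.59 (SE 0.274, 95% interval -1.17 to -0.01), with an unadjusted p of 0.0466 and an edgeR adjusted p of 0.171. Within replicates 1, 2 and 3 it was -0.82, -0.48 and -0.57, and with the replicate block it was -0.59 with an edgeR adjusted p of 0.0671, which passed the threshold. With offsets for GC content and length it was -0.26 (edgeR adjusted p = 0.492), and -0.26 with the block added (0.345).

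The Nlrc5 call of the blocked fit was kept in 11 of 18 fits that left out 1 library. It was lost without 1.7 mg/ml replicate 1 (adjusted p = 0.114), 2.6 mg/ml replicate 2 (0.108), 3.5 mg/ml replicate 3 (0.104), 4.4 mg/ml replicate 3 (0.104), suspension titled without CCL19 replicate 2 (0.213) and suspension titled plus CCL19 replicates 1 (0.239) and 3 (0.123). By density, the log2 change against suspension was -0.64 in the 1.7 gels, -0.18 in the 2.6 gels, -0.98 in the 3.5 gels and -0.55 in the 4.4 gels. At 3.5 mg/ml the edgeR adjusted p was 0.228, and 0.0700 with the block (log2 change -1.02), a call that was kept in 12 of 18 fits without 1 library. Between the suspension groups Nlrc5 differed by -1.12 on the log2 scale, titled plus minus titled without CCL19 (edgeR adjusted p = 0.761, 0.323 with the block), a wider gap than the one between collagen and suspension, though the 2 gaps were not tested against each other. Against the suspension group titled without CCL19 the changes were, from the loosest to the densest gel, -1.20, -0.74, -1.54 and -1.11 (edgeR adjusted p from 0.166 to 0.576). Against the group titled plus CCL19 they were -0.08, 0.38, -0.42 and 0.01 (edgeR adjusted p from 0.697 to 0.997, and from 0.434 to 0.943 with the block). Eosinophil markers, with 8 of 9 above 1 CPM in at least 1 library and Il5ra under it in all, summed to 118 to 1360 CPM in suspension and 14.1 to 170 CPM in collagen, and their part in the Nlrc5 difference was not tested.

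**Figure D2:**
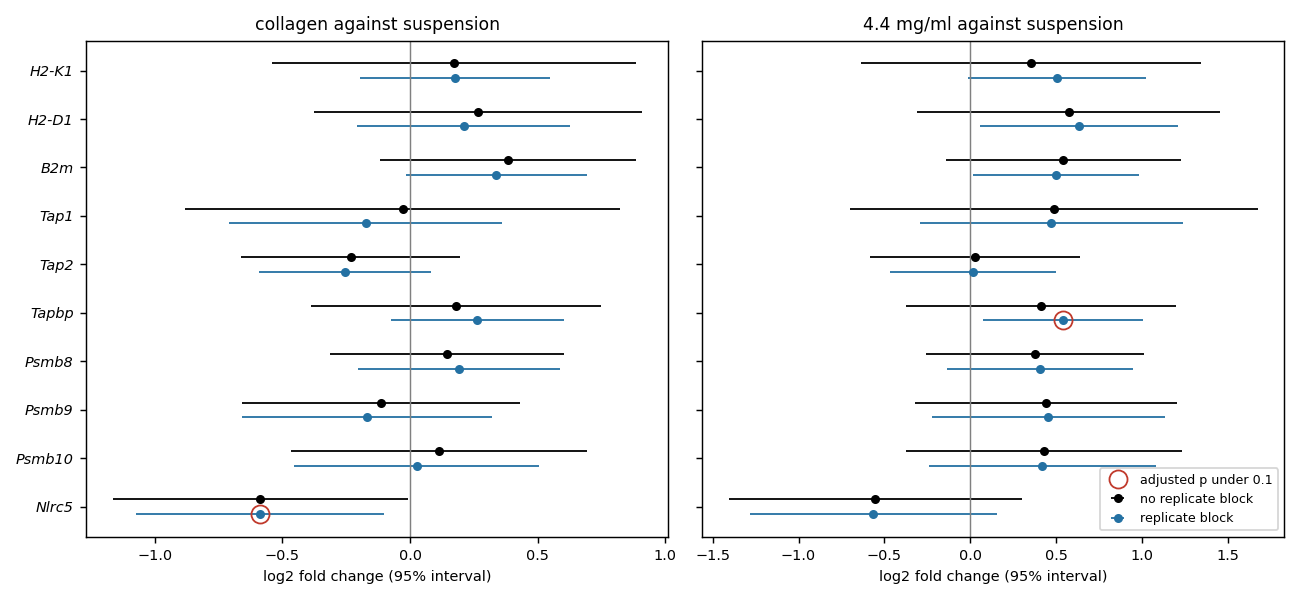
Log2 change of each gene in collagen (left) and in 4.4 mg/ml (right) against all 6 suspension libraries, with 95% intervals, from the edgeR fits without (black) and with (blue) the replicate block. Red circles mark an adjusted p under 0.1, which Nlrc5 has on the left and Tapbp on the right, both with the block.

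Counted together, 0 of the 10 genes were called at an adjusted p under 0.1 in collagen against suspension, where edgeR called 20.2% of all genes. At an unadjusted p under 0.05 it was 1 of 10 (Nlrc5), beside 27.9% of all genes, and DESeq2 called 0 of 10 beside 24.7% of all genes. With the replicate block edgeR called 1 of 10 (Nlrc5) beside 34.8% of all genes, and DESeq2 called 2 (B2m and Nlrc5) beside 38.9%. With GC and length offsets and the block edgeR called 1, Tapbp, beside 36.6%. The median log2 change of the 10 was 0.13, with 6 of 10 positive, beside 0.00 and 50.2% positive over all genes tested. In the densest gel, 4.4 mg/ml, 9 of 10 were positive against suspension with a median of 0.42, beside 0.01 and 50.3% of all genes. There too edgeR called 0 of 10 beside 14.8% of all genes, and 0 at an unadjusted p under 0.05 beside 24.8%, and DESeq2 called 0 of 10 beside 20.3%. With the block edgeR called Tapbp, 1 of 10, beside 31.9% of all genes, and DESeq2 with the block called 4 (B2m, Tapbp, H2-K1 and H2-D1), beside 36.3%. With the offsets and the block edgeR also called 4 (Tapbp, H2-K1, Tap1 and H2-D1), beside 34.3%. These DESeq2 and offset fits were not run without 4.4 mg/ml replicate 2. In the edgeR fit with the block and without that library, H2-K1 was at 0.03, H2-D1 at 0.13 and Tapbp at 0.24 at 4.4 mg/ml. B2m was then at 0.54 and Tap1 at -0.45, and 0 of 10 were called.

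The other densities gave edgeR counts of 0 of 10 without the block, with all-gene shares of 0.0361% in the 1.7 gels, 7.87% in the 2.6 gels and 4.9% in the 3.5 gels. At an unadjusted p under 0.05 the counts were 0, 0 and 1, beside 8.04%, 20.2% and 17.6% of all genes, and DESeq2 called 0 in each, beside 1.02%, 13.2% and 9.71%. With the block edgeR called 0, 0 and 1 (Nlrc5), beside 2.91%, 21.6% and 18.4% of all genes, and DESeq2 with the block called the same gene in the 3.5 gels, beside 23.1%. The block together with GC and length offsets added Tapbp in the 2.6 gels, beside 24.4% of all genes. Any difference among the 6 groups was called for 0 of 10 by edgeR (4.9% of all genes) and by DESeq2 (14.6%), and at an unadjusted p under 0.05 by edgeR for 1 of 10 (16.6%). With the block it was called for 1 of 10, Nlrc5, by edgeR (24.3% of all genes, adjusted p = 0.0669) and by DESeq2 (38.3%). Between the 2 suspension groups 0 of 10 were called by edgeR, with or without the block, and by DESeq2, beside 0% of all genes in each, and 1 at an unadjusted p under 0.05, beside 6.18%.

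Across the 4 densities, 9 of the 10 slopes were positive and none passed the test. The median slope was 0.08 log2 per mg/ml, the largest was that of Psmb9 at 0.22 (SE 0.149, 95% interval -0.10 to 0.54, edgeR adjusted p = 0.881), and Nlrc5 had -0.06. edgeR called 0 of 10 beside 0.00722% of all genes, and 0 at an unadjusted p under 0.05 beside 7.2%, and DESeq2 called 0 beside 0.882%. With the block the edgeR count was again 0 of 10 (1.45% of all genes), with 0.25 for Psmb9 (adjusted p = 0.421). Without 4.4 mg/ml replicate 2 the median slope was -0.0012, 5 of 10 were positive, that of Psmb9 was 0.15 and again 0 were called, with or without the block (0% and 0.313% of all genes).

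From 1.7 to 4.4 mg/ml all 10 were positive in the fit, beside 50.9% of all genes, with a median log2 change of 0.21 and again 0 called by edgeR, with or without the block (0.00722% and 1.73% of all genes), 0 at an unadjusted p under 0.05 (7.66%) and 0 by DESeq2 (1.06%). The replicates went different ways. In replicate 1 the differences of 8 of the 10 genes were negative, such as -0.59 for H2-K1 and -0.55 for H2-D1. In replicate 2 all but Nlrc5 were positive, up to 1.86 for Tap1 and 1.71 for Psmb9. In replicate 3 Tap1, Tap2 and Nlrc5 were negative (-0.43, -0.22 and -0.63) and the others positive, up to 0.40 for Psmb9. Without 4.4 mg/ml replicate 2 the median change was 0.06, with 6 of 10 positive and 0 called, with or without the block (0% and 0.299% of all genes).

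The order of the group means had the 4.4 mg/ml group on top for 8 of the 10 genes. For Tap2 and Nlrc5 the suspension group titled without CCL19 was highest. These means include 4.4 mg/ml replicate 2, and the order was not taken without it. In the edgeR fit without that library, the change from 1.7 to 4.4 mg/ml was -0.06 for H2-K1, -0.03 for H2-D1 and -0.04 for Tap1. In that fit 6 of 10 changes were positive. None of the 50 pairs of neighbours in these orders differed beyond their spread: all 50 ranges overlapped and the smallest edgeR adjusted p was 0.576, or 0.392 with the block. Neighbours are the closest groups by construction. Over all 15 pairs of groups, 150 tests in all, edgeR called 0 without the block and 3 with it, each against the suspension group titled without CCL19. These were Nlrc5 in the 3.5 gels (adjusted p = 0.0356, beside 9.61% of all genes called) and Nlrc5 and Tapbp in the 4.4 gels (0.0593 and 0.0942, beside 28.6%). When CPM were taken on total counts, the order stayed as it was for 2 of the 10 genes.

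One library stood apart in the densest group. Within replicate 2, 4.4 mg/ml stood above all 5 other libraries for 9 of the 10 genes: it held 3.68 times the median of the other 5 for Tap1, 2.85 times for Psmb9, 2.55 times for H2-D1, 2.25 times for H2-K1, 2.03 times for Psmb10, 1.98 times for Tapbp and 1.85 times for Tap2. Psmb8 was at 1.47 times and B2m at 1.18 times, while Nlrc5 was at 0.928 times. The type I interferon-stimulated genes Irf7, Isg15 and Cxcl10 moved with them, at 4.92, 2.74 and 9.30 times that median, whereas the interferon-gamma-responsive factor Irf1 was at 1.05 times. Markers of other cells were also high in that library. The 9 macrophage markers summed to 4875 CPM, 2.66 times the median of 1833 CPM in the other 5 libraries of replicate 2 and above their highest of 2242 CPM. The 4 markers listed for plasmacytoid DCs, the main producers of type I interferon, summed to 2276 CPM. This was 3.96 times the median of 576 CPM and above the highest of 828 CPM. Siglech and Ccr9 of this list stayed under 1 CPM in every library, so the sum came from Bst2 and Tcf4. Bst2 is also in the interferon-stimulated list, and the presence of plasmacytoid DCs is not read from this sum. The DC markers were at 0.948 times and the neutrophil markers at 0.300 times their median. The part of these genes and cells in the class I values was not tested. Leaving this library out, the log2 change at 4.4 mg/ml against suspension went from 0.49 to -0.06 for Tap1, from 0.35 to 0.18 for H2-K1 and from 0.03 to -0.22 for Tap2, and with the block to -0.45, 0.03 and -0.40. Over the 10 genes the median at 4.4 mg/ml was 0.24 without this library, with 7 of 10 positive, and 0.08 with the block. With the block and without this library, Tap1, Tap2 and Nlrc5 passed the test as lower in collagen, beside 37.6% of all genes called. At 4.4 mg/ml against suspension edgeR then called 0 of the 10 genes, beside 10.1% of all genes, and 0 with the block, beside 25.1%.

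**Figure D3:**
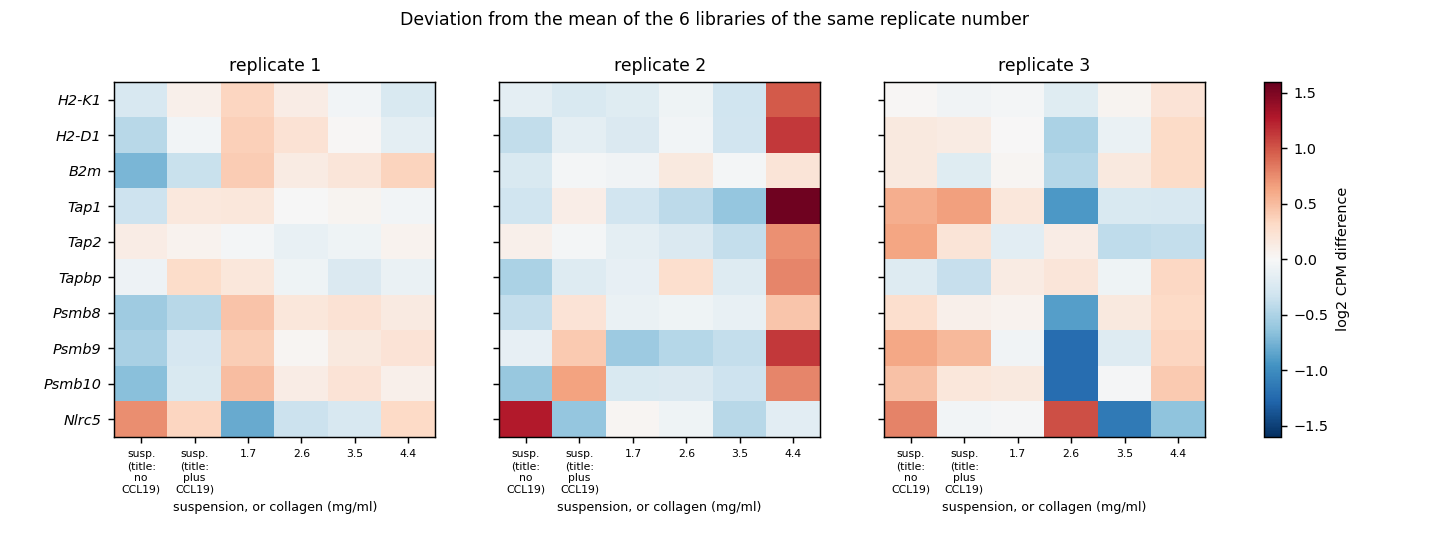
Log2 CPM of the 10 genes in each library (columns, by group and replicate number) as deviation from the mean of the 6 libraries with the same replicate number, on a colour scale from lower to higher. The column of 4.4 mg/ml replicate 2 is high for all genes but Nlrc5, and the row of Nlrc5 differs from the others.

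Over the 18 libraries the 36 pairs of genes other than Nlrc5 had a median Pearson r of 0.622 (-0.24 to 0.946) in log2 CPM, and 0.598 after centring on the replicate number. The 9 pairs with Nlrc5 had a median of -0.27, and -0.33 after centring. These values are a description, since the libraries share dates, name codes and groups. The replicate number took a median of 44.6% of the variance over the 10 genes and the group 22.6%, beside 25.5% and 33.6% over all genes tested. Replicate exceeded group for the 6 genes H2-K1, H2-D1, B2m, Tap1, Tap2 and Tapbp, while for Nlrc5 the group took 48.5% and the replicate number 16.6%. The transcripts most like the mean standardised level of the 10 genes were Tmem106a (r = 0.966), Gm2467 (0.960), Ncf4 (0.960), a subunit of the phagocyte NADPH oxidase, Gm4575 (0.956) and Gm8864 (0.954), over 18 libraries.

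The balance of an immunoproteasome subunit with the constitutive subunit it replaces is a measure within a library, on which the scaling of libraries has no bearing. Psmb9 over Psmb6, per kilobase, was lower in collagen than in suspension, whereas Psmb8 over Psmb5 and Psmb10 over Psmb7 did not differ beyond their spread. In suspension Psmb9 over Psmb6 was 0.481, 0.554 and 0.645 in the group titled without CCL19 and 0.453, 0.422 and 0.685 in the group titled plus CCL19. It was 0.331, 0.227 and 0.345 in the 1.7 gels, 0.321, 0.311 and 0.368 in the 2.6 gels, 0.383, 0.312 and 0.365 in the 3.5 gels and 0.468, 0.523 and 0.471 in the 4.4 gels. All 9 libraries from 1.7 to 3.5 mg/ml lay below all 6 suspension libraries, and the 4.4 mg/ml libraries lay within the suspension range. The means were 0.540 ± 0.107 (SD, n = 6) in suspension, 0.301 ± 0.0645, 0.334 ± 0.0305 and 0.353 ± 0.0364 (n = 3 each) in the 3 looser gels and 0.487 ± 0.0311 (n = 3) in the densest.

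The difference between collagen and suspension was -0.56 on the log2 scale, with a two-sided exact permutation p of 0.00253 over 18564 regroupings, or 0.0152 adjusted over the 6 ratios tested. It was negative within each replicate (-0.33, -0.56 and -0.79), and the exact p within replicates was 0.00326 (0.0196 adjusted). The ratio rose with density by 0.25 log2 per mg/ml over the 12 collagen libraries (exact permutation p = 0.00118, adjusted 0.00708), and rose within each replicate (0.19, 0.40 and 0.15). This slope rested on the densest gel, since over 1.7 to 3.5 mg/ml it was 0.14 with an adjusted exact permutation p of 0.957. Without replicate 3 the collagen difference was -0.45 with an adjusted p of 0.303, and without replicate 1 the adjusted p of the slope was 0.105, in smaller designs. The fitted changes behind the ratio were -0.11 for Psmb9 and 0.45 for Psmb6 (edgeR adjusted p of 0.820 and 0.236), and with GC and length offsets their difference was -0.32. The ratios were chosen after the values were seen, and eosinophil marker sums differed between the same groups, whose part in the ratio was not tested.

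**Figure D4:**
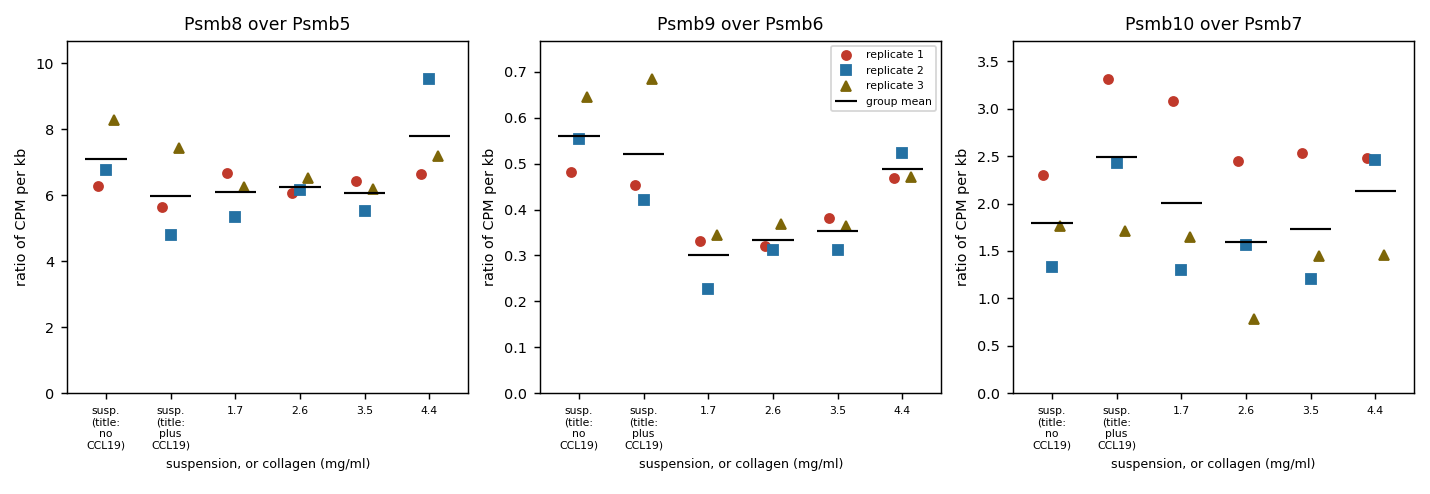
Ratio of each immunoproteasome subunit to the constitutive subunit it replaces, per kilobase, in every library by group, with group means. Psmb9 over Psmb6 is at most 0.383 in all libraries from 1.7 to 3.5 mg/ml and between 0.468 and 0.523 at 4.4 mg/ml, which is within the suspension range. The other ratios overlap with suspension at every density.

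Psmb8 over Psmb5 ranged from 4.81 to 8.29 in suspension and from 5.33 to 9.54 in collagen, a difference of 0.01 on the log2 scale (adjusted exact permutation p = 0.946). Psmb10 over Psmb7 ranged from 1.33 to 3.32 and from 0.780 to 3.08, a difference of -0.24 (adjusted exact permutation p = 0.852). Of the other ratios tested, Tap1 over Tap2 differed by 0.05, H2-D1 over H2-K1 by 0.04 and B2m over H2-K1 by 0.20, with adjusted exact permutation p from 0.852 to 0.946.

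Among the regulators of class I genes, 5 of 15 changed in collagen. Of these edgeR called 1 higher and 4 lower in collagen against suspension, beside 7.78% higher and 12.4% lower of all genes, with a list median of -0.37. Rfx5, a subunit of the RFX complex that binds class I and class II promoters, ranged between 9.73 and 17.2 CPM in suspension (n = 6) and between 2.08 and 7.67 CPM in collagen (n = 12), without overlap (log2 change -1.41, edgeR adjusted p = 0.00113). Ciita, the class II transactivator and closest functional relative of Nlrc5, fell by 1.03 (adjusted p = 0.00492), with 36.8 to 246 CPM in suspension and 27.7 to 112 CPM in collagen. Between the suspension groups Ciita differed by -0.96, -1.89 and -1.79 within replicates 1, 2 and 3, titled plus minus titled without CCL19, beside -1.41, -0.14 and -1.27 in collagen minus suspension. Irf1, the interferon-gamma-responsive factor, fell by 0.61 (0.0189), and Ifngr1, the ligand-binding chain of the interferon-gamma receptor, was lower by a log2 change of -0.69 (0.0564). Within replicates the change of Ifngr1 was -1.20, -0.74 and 0.21, so replicate 3 went the other way. Nfyc, a subunit of the CCAAT-binding factor, was higher by 0.56 (0.0489). With the block the counts were 2 higher and 8 lower, beside 15.6% and 19.3% of all genes.

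Among the other lists of the pathway, cross-presentation held 4 calls of 10 genes and the rest 1 or none, beside 20.2% of all genes. Of 15 tested heavy chains and relatives (16 listed) edgeR called 0, with a median of 0.13, and of 6 factors of peptide loading 0, with a median of 0.29. Of 7 proteasome activator and assembly genes only Psme4, a proteasome activator, rose (1.02, adjusted p = 0.0237), and Psmb5, Psmb6 and Psmb7 were not called. Of 10 cross-presentation genes 3 rose and 1 fell: Cybb, the catalytic subunit of the phagocyte NADPH oxidase, by 1.23 (0.00959), Sec22b, a vesicle fusion protein, by 0.40 (0.0696), and Sec61g, a translocon subunit, by 0.98 (0.0973), while Wdfy4, needed for cross-presentation in DCs, fell by 0.92 (0.00339). Of 5 genes of class I turnover edgeR called 0. With the block the counts of higher and lower genes, beside 15.6% and 19.3% of all genes, were 3 and 1 for heavy chains and relatives, 1 and 0 for loading (Calr), 2 and 1 for activator and assembly, 5 and 1 for cross-presentation and 1 and 0 for turnover (March9). Without 4.4 mg/ml replicate 2 the blocked counts were 2 and 4 for heavy chains and relatives and 0 and 1 for turnover (Wwp2). Loading then had 2 and 0 (Calr and Pdia3), activator and assembly 2 and 1, and cross-presentation 5 and 1. In that fit 17.1% of all genes were higher and 20.5% lower.

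Class II genes and interferon-stimulated genes were set beside them. Of 9 class II genes edgeR called 0 in collagen, with or without the block, and the median without it was 0.18. Of 21 type I interferon-stimulated genes 2 rose, Mx1 by 0.99 (edgeR adjusted p = 0.00910) and Isg15 by 1.13 (0.0242), with a median of 0.52, beside 7.78% of all genes called higher, and with the block 8 were higher and 1 lower, beside 15.6% and 19.3%. At 4.4 mg/ml 3 of them rose (Isg15, Mx1 and Ifi44), beside 6.55% of all genes, with a median of 1.38 and 19 of 21 positive, beside medians of 0.51 for the heavy chains and relatives and 0.63 for class II. With the block at 4.4 mg/ml, 15 of 21 interferon-stimulated genes, 8 of 15 heavy chains and relatives and 3 of 9 class II genes were higher, beside 15.8% of all genes. These counts include the library that stood apart. Without 4.4 mg/ml replicate 2 they were 12 of 21, 3 of 15 and 0 of 9, beside 12.5% of all genes, and the medians without the block were 1.39, 0.38 and 0.29. In the density trend edgeR called 0 in every list, and with the block Ciita was lower and 6 interferon-stimulated genes were higher, beside 0.65% and 0.802% of all genes. Without that library Ciita was not called and 2 of the 21 were higher (Mx2 and Ifi44), beside 0.223%.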

How the data were processed

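RNA of 18 libraries of LPS-matured, bone marrow-derived DCs was sequenced with a stranded mRNA kit. The study's methods name STAR (version 2.7.0f, also in the submitters' processing notes) for alignment to GRCm38, and the authors deposited raw counts per gene. The tool and strand setting behind those counts were not given in the sources used here. The 10 genes and all lists were chosen with earlier results of these data known, and every one of the 10 is named in every comparison. Of each list, up to 4 genes past the threshold in collagen against suspension or in the density trend are named, smallest p first, together with the constitutive subunits, and any gene named outside this rule was chosen after its values were seen.

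Groups were taken from sample titles. One edgeR quasi-likelihood fit (edgeR 4.0.16, R 4.3.3) on all 18 libraries, with filterByExpr and TMM, gave all comparisons, with Benjamini-Hochberg adjustment over 13844 genes and a threshold of 0.1. The sources name no batch term, so this fit had none. Replicate numbers pair the samples, because each number shares a date and a code in the library names. Same-numbered libraries of different groups correlated in their deviations at -0.15 to 0.846 (mean 0.434), and fits with the number as a block are alternatives. Other alternatives were DESeq2 1.42.0, its size factors, GC and length offsets, no filter, a threshold of 0.05, the compared groups alone and leaving out each replicate number or library. The list counts without 4.4 mg/ml replicate 2, the blocked fits without 1 library and DESeq2 with the block were added after seeing the data. The edgeR and DESeq2 steps were run on simulated counts. The checks covered the sign of edgeR calls and, with the block, how many of the larger changes were called. They set no limit on false calls and none for DESeq2. Where nothing says that replicates came from separate animals, p-values measure only the spread between these libraries. Levels per kilobase used the length of an annotated transcript. Ratios were tested by exact permutation of libraries. Intervals and count limits cover counting and fit error only.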

Additional observations from a re-analysis of the deposited data

How the results depend on the processing

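Over 80 values (10 genes in 8 signed comparisons) and their alternatives, 3830 values in all, 292 changed sign, and 0 of these passed the threshold. Without the block 0 of the 80 passed it, and 59 alternative values did, 57 of them in fits with the replicate block. In edgeR on all 18 libraries without offsets, the block took the number of genes called from 0 to 1 in 4 comparisons. These were collagen, the 3.5 gels, the 4.4 gels and any difference. Over the 15 pairs of groups it took the calls from 0 to 3. Without 4.4 mg/ml replicate 2 the block added Tap1, Tap2 and Nlrc5 in collagen. DESeq2 with the block called 2 in collagen, 1 in the 3.5 gels, 4 in the 4.4 gels and 1 in any difference, and without the filter edgeR called 1 in any difference. Offsets for GC content and length with the block called 1 in collagen, 1 in the 2.6 gels and 4 in the 4.4 gels. The DESeq2 and offset fits were not run without 4.4 mg/ml replicate 2. Signs turned as follows, and the cause was not tested. Tap1 in collagen went to 0.022 with DESeq2 and with its size factors in edgeR, and to 0.28 with the offsets (0.16 with the block). B2m went with the offsets to -0.053 in collagen and -0.031 in the 4.4 gels (-0.085 and -0.037 with the block), Psmb9 in collagen to 0.039 (0.016), and Tap2 at 4.4 mg/ml without the filter to -0.042. Over 1.7 to 3.5 mg/ml alone the slopes of the ratios were 0.14 for Psmb9 over Psmb6, -0.00276 for Psmb8 over Psmb5 and -0.11 for Psmb10 over Psmb7.

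Leaving out a library or a replicate number gave, in collagen, -0.010 to 0.50 for H2-K1, -0.40 to 0.21 for Tap1, -0.066 to 0.42 for Psmb8, -0.51 to 0.27 for Psmb9 and -0.25 to 0.40 for Psmb10. At 4.4 mg/ml it gave -0.0085 to 0.85 for H2-K1, -0.45 to 0.91 for Tap1 and -0.40 to 0.32 for Tap2. The counts of genes called ran from 0 to 3 in collagen, 0 to 1 in the 2.6 gels, 0 to 2 in the 3.5 gels, 0 to 3 in the 4.4 gels and 0 to 1 in any difference. Among fits without the block, Psmb9 was called in the 2.6 gels and Tapbp in the 4.4 gels without replicate 1. The Nlrc5 call in any difference was kept in 13 of 18 blocked fits without 1 library. Psmb9 over Psmb6 ran from -0.68 to -0.45 in collagen and from 0.17 to 0.30 per mg/ml in slope, Psmb8 over Psmb5 from -0.076 to 0.15 in collagen, and Psmb10 over Psmb7 from -0.031 to 0.20 in slope. The adjusted p over all alternatives ranged from 0.0097 to 0.492 for Nlrc5 in collagen, 0.0235 to 0.579 for Nlrc5 at 3.5 mg/ml and 0.0139 to 0.968 for Tapbp at 4.4 mg/ml. Over all genes edgeR called 2790 in collagen and 4823 with the block, 1 and 201 in the density trend, 5 and 403 in the 1.7 mg/ml gels, 1090 and 2990 in the 2.6 gels, 679 and 2551 in the 3.5 gels, 2054 and 4420 in the 4.4 gels, 1 and 239 from 1.7 to 4.4 mg/ml, and 679 and 3363 in any difference. DESeq2 without the block called 122 in the density trend, 141 in the 1.7 gels, 1828 in the 2.6 gels, 1343 in the 3.5 gels, 147 from 1.7 to 4.4 mg/ml and 2015 in any difference. At 3.5 mg/ml the split of all calls went from 273 higher and 406 lower to 357 and 178 with GC and length offsets. A fit on the compared groups alone was not run for collagen against suspension or any difference, which use every library.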
